A study of Homo sapiens with 9 samples.

Results

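The genes described here encode the machinery that ends transcripts of RNA polymerase II: 22 factors of messenger RNA cleavage and polyadenylation, and 11 subunits of the Integrator complex. They were taken by name from a list of 33 symbols chosen for their function. All 33 were found once each among the 57773 genes of the deposited table. The cells were OVCAR-8, a human ovarian cancer line in culture, harvested 48 h after they received a luciferase siRNA as the control or either of a pair of siRNAs against the kinase CDK12, named CDK12-2 and CDK12-6, and their RNA was sequenced. Each of the 3 groups has 3 libraries, numbered AK39, AK41 and AK49, and the labels call them technical replicates of a single cell line. The p-values therefore measure the spread between libraries and say nothing of separate cultures. In bulk RNA of this kind, fewer cells and less RNA per cell cannot be told apart.

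As background, CDK12 pairs with cyclin K and phosphorylates the tail of RNA polymerase II during elongation, and its loss is known for shortening the transcripts of long genes through early polyadenylation. At the end of a gene, the cleavage and polyadenylation specificity factor (CPSF) reads the poly(A) signal and cuts the RNA, the cleavage stimulation factor (CstF) reads the sequence after the cut, the cleavage factors CFIm and CFII tune the choice of site and couple it to the polymerase, and a poly(A) polymerase adds the tail. The exonuclease XRN2 then degrades the RNA still attached to the polymerase. Integrator is a separate machine that cuts small nuclear RNAs and the early transcripts of many coding genes, and it carries a PP2A phosphatase.

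The unit is RPKM as the authors deposited it, that is reads scaled to a kilobase of gene and to 1000000 reads of the library, so levels of different genes can be set side by side. Libraries held 130.7 to 173.4 times 1000000 reads, and each member drew between 1807 reads (INTS12) and 57711 reads (PAPOLA) per library. CDK12 itself stood at 8.33, 7.09 and 8.40 RPKM in the luciferase libraries and at 2.06 to 2.75 RPKM in the 6 CDK12 siRNA libraries, and its mean fell by 69.5% (log2 fold change -1.39 ± 0.095 SE, adjusted p = 1.5e-05, limma). The epithelial keratins KRT8 (199 to 258 RPKM) and KRT18 (126 to 188 RPKM) and the Müllerian factor PAX8 (5.71 to 9.63 RPKM) were present, while KRT19 (at most 0.033 RPKM) and MUC16 (at most 0.00087 RPKM) were at or near 0. Among markers of other cells, PTPRC, VWF, COL1A2, DCN and HBB stayed at or under 0.132 RPKM, whereas CD68 (3.76 to 16.5 RPKM) and COL1A1 (12.5 to 36.1 RPKM) were well above 0. RNA species without a poly(A) tail, as counted here, made up 361 to 1056 reads per 1000000. The count covers small nuclear, small nucleolar and Cajal body RNA genes with RN7SK, RN7SL1, RN7SL2, RMRP and RPPH1. Histone genes, ribosomal RNA and transfer RNA were left out of it. The library richest in such tail-less RNA was AK41 among the controls (846), AK39 with CDK12-2 (1056) and also AK39 with CDK12-6 (1045).

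Against luciferase, with the mean of both CDK12 siRNAs, 8 of the 33 members changed. SYMPK, CPSF2, CSTF3, PAPOLA and PAPOLG fell, and CSTF1, CLP1 and XRN2 rose. The test was limma on log2(RPKM + 1), fitted to the 15208 genes that reached 1 RPKM in 3 or more libraries, with Benjamini-Hochberg adjustment over all of them and a threshold of 0.05; all 33 members passed the filter. In the same comparison 33% of all tested genes were called, 13.3% higher and 19.7% lower, so that the members' share, 24.2%, was no larger than the background. At an unadjusted p under 0.05 it was 13 members, or 39.4%, beside 43.1% of all tested genes. The members' median log2 fold change was -0.07, beside -0.04 for all tested genes. All 8 called members belong to the 22 cleavage and polyadenylation genes, and none to Integrator; whether the gene groups differ in this was not tested. With the scale set to reads in listed genes or by quantiles, 6 members were called higher and 5 lower, while calls over all tested genes went from 2027 higher and 2997 lower to 3388 and 3159 with the first scaling and to 3255 and 3341 with the second. The members' shift thus went with one of the whole table.

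**Figure D1:**
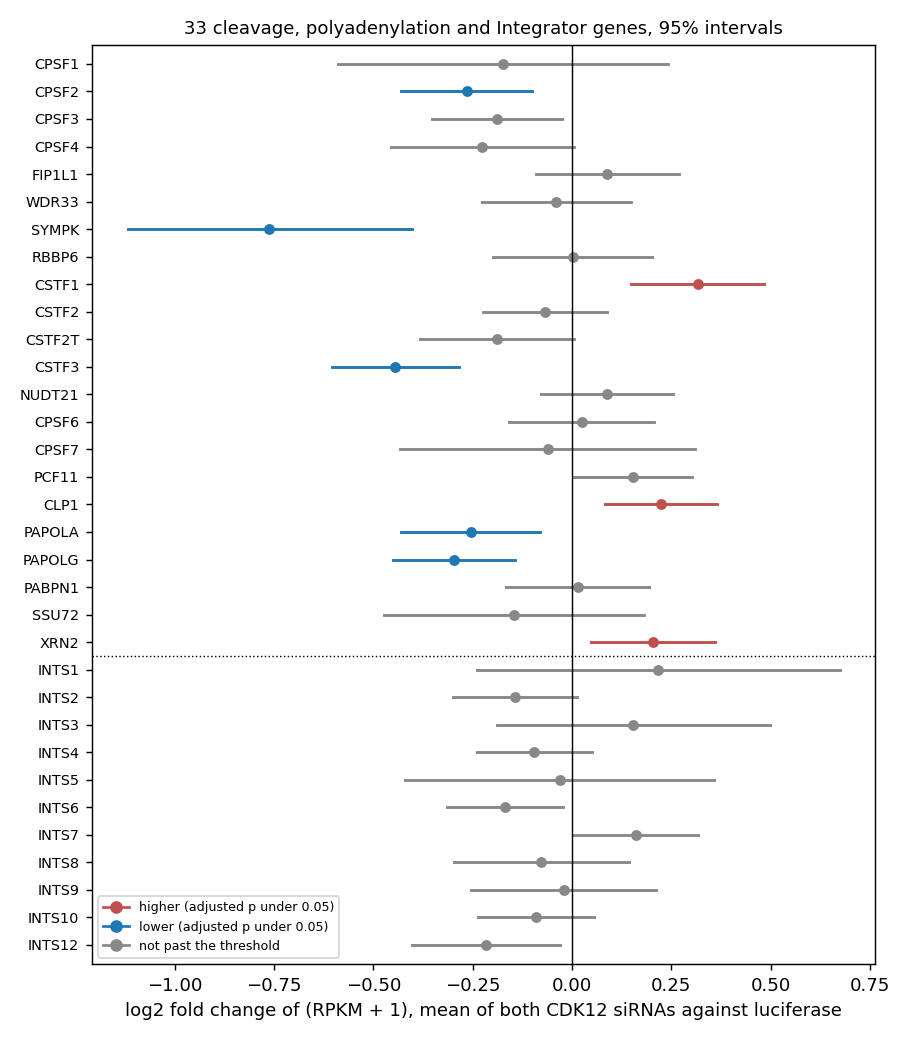
Log2 fold change of (RPKM + 1) for the mean of both CDK12 siRNAs against luciferase (x axis) for each of the 33 genes (y axis), with 95% intervals; the dotted line parts the 22 cleavage and polyadenylation genes from the 11 Integrator genes. SYMPK lies farthest to the left at -0.76 and CSTF1 is the highest called gene at 0.32, while none of the 11 Integrator genes shown passed the threshold.

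CPSF, with its scaffold symplekin and the activator RBBP6, had 2 of 8 genes called, both lower, and a median log2 fold change of -0.18. SYMPK (ENSG00000125755, hg19 chr19:46318668-46366548) encodes symplekin, the scaffold that holds the nuclease module together and also serves histone mRNA processing. It stood at 7.30, 5.14 and 7.37 RPKM in luciferase AK39, AK41 and AK49, at 2.76, 3.60 and 4.43 RPKM with CDK12-2, and at 2.59, 3.31 and 4.29 RPKM with CDK12-6. The highest CDK12 siRNA library lay below the lowest control. The mean fell from 6.60 ± 1.27 RPKM (SD, n = 3) to 3.50 ± 0.762 RPKM (SD, n = 6), by 47.1%. The log2 fold change was -0.76 ± 0.16 (SE; adjusted p = 0.0057, limma), and it was -0.73 with CDK12-2 and -0.79 with CDK12-6 alone (adjusted p = 0.018 and 0.012). In each group the lowest SYMPK value came from the library richest in tail-less RNA. Without those 3 libraries the log2 fold change was -0.77 (adjusted p = 0.0020, limma). The call was lost in 1 of 21 alternatives, without AK39 in all groups (-0.55, adjusted p = 0.062, limma).

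CPSF2 (ENSG00000165934, hg19 chr14:92588281-92630755) encodes the non-catalytic partner of the nuclease CPSF3. Its controls were tight at 15.04, 15.13 and 14.55 RPKM. With CDK12-2 it stood at 11.3, 13.1 and 13.3 RPKM, and with CDK12-6 at 11.4, 12.7 and 11.9 RPKM. All 6 values lay below the controls, and the mean fell by 17.8%, from 14.9 ± 0.311 RPKM (SD, n = 3) to 12.3 ± 0.865 RPKM (SD, n = 6; log2 fold change -0.26 ± 0.074 SE, adjusted p = 0.021, limma). It passed with CDK12-6 alone (adjusted p = 0.030, limma) and not with CDK12-2 (0.072). The call was lost in 7 of 21 alternatives: without luciferase AK39 (adjusted p = 0.085, limma), AK41 (0.063) or AK49 (0.060), when all libraries of number AK39, AK41 or AK49 were dropped (0.10, 0.16 and 0.072), and without the 3 libraries richest in tail-less RNA (log2 fold change -0.20, adjusted p = 0.070).

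CPSF3, the endonuclease that makes the cut, did not pass. Its libraries read 11.8, 11.6 and 11.3 RPKM in the controls, 8.96, 10.7 and 10.7 RPKM with CDK12-2, and 9.74, 10.2 and 10.001 RPKM with CDK12-6. These groups did not overlap, yet the log2 fold change of -0.19 ± 0.073 (SE) had an adjusted p of 0.076 (limma). CPSF4, which binds the poly(A) signal together with WDR33, read 7.89, 6.43 and 8.22 RPKM in the controls, 5.49, 6.39 and 6.82 RPKM with CDK12-2, and 5.54, 6.34 and 7.04 RPKM with CDK12-6. Here the groups overlapped (log2 fold change -0.23 ± 0.10 SE, adjusted p = 0.12, limma). CPSF4 was called lower under quantile scaling (adjusted p = 0.033, limma) and without the 3 libraries richest in tail-less RNA (0.049). CPSF3 was called lower with both CDK12 siRNAs merged into a single group (adjusted p = 0.0497, limma). The scaffold CPSF1, the polymerase recruiter FIP1L1, WDR33 and RBBP6 had log2 fold changes of -0.17, 0.09, -0.04 and 0.00, and none passed. FIP1L1 was called higher under quantile scaling and scaling to reads in listed genes (log2 fold change 0.16 and 0.15, adjusted p = 0.017 and 0.015, limma).

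Within CstF, a complex of 3 kinds of subunit, the genes moved in opposite directions: CSTF3 fell, CSTF1 rose, and CSTF2 and its autosomal copy CSTF2T did not pass. CSTF3 (ENSG00000176102, hg19 chr11:33098734-33183917), the subunit that bridges the other two, read 9.85, 10.8 and 9.64 RPKM in the controls. It read 6.998, 7.39 and 7.07 RPKM with CDK12-2, and 7.37, 7.51 and 6.56 RPKM with CDK12-6. The groups did not overlap, and the mean fell by 29.2%, from 10.1 ± 0.627 RPKM (SD, n = 3) to 7.15 ± 0.348 RPKM (SD, n = 6; log2 fold change -0.45 ± 0.071 SE, adjusted p = 0.0013, limma). Each siRNA passed alone, with adjusted p of 0.0040 for CDK12-2 and 0.0038 for CDK12-6 (limma). The call was lost in 1 of 21 alternatives, without AK41 in all groups (adjusted p = 0.055, limma).

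CSTF1 (ENSG00000101138, hg19 chr20:54967427-54979518), the WD-repeat subunit, read 9.96, 11.4 and 9.87 RPKM in the controls, 12.6, 13.6 and 12.9 RPKM with CDK12-2, and 13.6, 14.1 and 12.4 RPKM with CDK12-6. Every CDK12 siRNA library stood above every control. The mean was 26.8% higher, at 13.2 ± 0.665 RPKM (SD, n = 6) against 10.4 ± 0.840 RPKM (SD, n = 3), with a log2 fold change of 0.32 ± 0.075 (SE; adjusted p = 0.010, limma). The adjusted p was 0.031 for CDK12-2 alone and 0.020 for CDK12-6 alone (limma). The call was lost in 5 of 21 alternatives. Leaving out luciferase AK39 or AK49 ended it (adjusted p = 0.058 and 0.056, limma). So did leaving out AK39, AK41 or AK49 in all groups (adjusted p = 0.082, 0.091 and 0.056, limma). CSTF2, which binds the GU-rich element after the cut, stood at 16.03 to 16.24 RPKM in the controls and 14.4 to 16.7 RPKM with CDK12 siRNA (log2 fold change -0.07, adjusted p = 0.49, limma). CSTF2T read 10.03, 9.12 and 9.84 RPKM in the controls, 7.22, 8.79 and 8.92 RPKM with CDK12-2, and 7.67, 8.58 and 9.05 RPKM with CDK12-6; the groups did not overlap, and the log2 fold change of -0.19 ± 0.086 (SE) had an adjusted p of 0.12 (limma; 0.041 with scaling to reads in listed genes).

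Ratios between subunit genes within a library do not depend on how libraries are scaled. The CSTF1 to CSTF3 ratio of RPKM was 1.01, 1.05 and 1.02 in the controls, a mean of 1.03 ± 0.0206 (SD, n = 3). In the CDK12 siRNA libraries it ran from 1.80 to 1.89, a mean of 1.84 ± 0.0331 (SD, n = 6). The ratio thus varied little within groups and was far apart between them; it was chosen after the values were seen and is given with no test. CSTF1 to CSTF2 ran from 0.608 to 0.705 in the controls and from 0.773 to 0.944 with CDK12 siRNA, and CSTF3 to CSTF2 from 0.593 to 0.670 and from 0.413 to 0.511, both without overlap. CSTF2 to CSTF2T ran from 1.598 to 1.77 and from 1.69 to 2.02, with overlap. In CPSF, SYMPK to CPSF3 fell in a range of 0.444 to 0.654 in the controls and 0.266 to 0.429 with CDK12 siRNA.

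**Figure D2:**
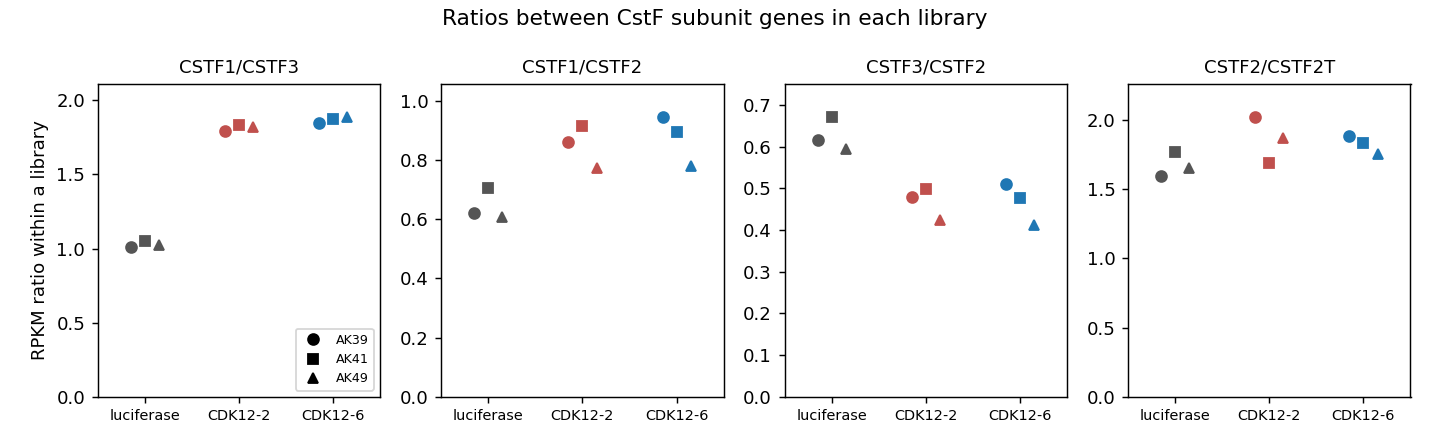
Ratio of RPKM within each library (y axis, from 0) for 4 pairs of CstF subunit genes, by group (x axis), with a marker shape for each AK number. CSTF1 to CSTF3 lies at 1.01 to 1.05 in the 3 luciferase libraries and at 1.80 to 1.89 in the 6 CDK12 siRNA libraries, and CSTF2 to CSTF2T overlaps between groups.

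CFIm binds upstream elements and steers the choice between poly(A) sites, and none of its 3 genes passed (limma; none had an unadjusted p under 0.05 either). NUDT21, the RNA-binding subunit and the most abundant member per length, read 59.3, 57.9 and 53.7 RPKM in the controls, 56.5, 64.0 and 61.8 RPKM with CDK12-2, and 61.3, 63.0 and 57.1 RPKM with CDK12-6. The groups overlapped, and the log2 fold change was 0.09 (adjusted p = 0.40, limma; 95% interval -0.08 to 0.25). Its partners CPSF6 and CPSF7 had log2 fold changes of 0.02 and -0.06, with 95% intervals of -0.16 to 0.21 and -0.43 to 0.31.

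Of the 7 genes of CFII, the poly(A) polymerases and their partners in tail synthesis and termination, 2 rose and 2 fell, with a median log2 fold change of 0.01. CLP1 (ENSG00000172409, hg19 chr11:57416465-57429340), the RNA kinase of CFII that also acts in tRNA splicing, read 6.31, 6.96 and 6.72 RPKM in the controls, 7.51, 7.84 and 7.68 RPKM with CDK12-2, and 8.25, 8.19 and 8.24 RPKM with CDK12-6. The groups did not overlap. The mean was 19.3% higher, 7.95 ± 0.321 RPKM (SD, n = 6) against 6.66 ± 0.330 RPKM (SD, n = 3; log2 fold change 0.22 ± 0.062 SE, adjusted p = 0.021, limma). It passed with CDK12-6 (adjusted p = 0.023, limma) and not with CDK12-2 (0.098), and the direct difference between the siRNAs was -0.09 with a 95% interval of -0.25 to 0.07. The call was lost in 6 of 21 alternatives. Without luciferase AK39 or AK49, or CDK12-2 AK41, the adjusted p was 0.12, 0.070 and 0.056 (limma). Without AK39, AK41 or AK49 in all groups it was 0.11, 0.19 and 0.12 (limma).

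Its CFII partner PCF11, which binds the polymerase tail and dismantles the elongation complex, read 8.71, 8.96 and 8.66 RPKM in the controls, 9.41, 10.2 and 10.8 RPKM with CDK12-2, and 9.34, 9.99 and 9.56 RPKM with CDK12-6. All CDK12 siRNA values lay above the controls, while the log2 fold change of 0.15 ± 0.067 (SE) had an adjusted p of 0.11 (limma). It passed under quantile scaling and under scaling to reads in listed genes (adjusted p = 0.017 and 0.013, limma).

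Both poly(A) polymerases fell. PAPOLG (ENSG00000115421, hg19 chr2:60983365-61029220), the less abundant enzyme, read 2.73, 2.65 and 2.60 RPKM in the controls, 1.73, 2.09 and 2.15 RPKM with CDK12-2, and 1.89, 2.07 and 1.95 RPKM with CDK12-6. No values overlapped, and the mean fell by 25.5%, from 2.66 ± 0.0643 RPKM (SD, n = 3) to 1.98 ± 0.156 RPKM (SD, n = 6; log2 fold change -0.30 ± 0.068 SE, adjusted p = 0.0090, limma). Each siRNA passed alone (adjusted p = 0.023 and 0.021, limma). Only 2 of 21 alternatives ended the call, leaving out AK39 (adjusted p = 0.062, limma) or AK41 (0.11) in all groups.

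PAPOLA (ENSG00000090060, hg19 chr14:96967770-97033448), the main nuclear enzyme, read 24.5, 26.1 and 22.3 RPKM in the controls, 19.5, 20.4 and 20.4 RPKM with CDK12-2, and 20.4, 21.96 and 18.5 RPKM with CDK12-6. The groups were close but did not overlap. Its mean fell by 16.9%, from 24.3 ± 1.90 RPKM (SD, n = 3) to 20.2 ± 1.14 RPKM (SD, n = 6; log2 fold change -0.25 ± 0.078 SE, adjusted p = 0.032, limma), and neither siRNA passed alone (adjusted p = 0.062 and 0.070). The call was lost in 10 of 21 alternatives, among them quantile scaling (-0.16, adjusted p = 0.20, limma) and scaling to reads in listed genes (-0.19, adjusted p = 0.14). Without the 3 libraries richest in tail-less RNA it was -0.20 (adjusted p = 0.14, limma). Single libraries also decided it: without luciferase AK39 or AK41, CDK12-2 AK41 or CDK12-6 AK39, the adjusted p was 0.11, 0.12, 0.062 and 0.056.

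XRN2 (ENSG00000088930, hg19 chr20:21283942-21370463), the exonuclease of termination, read 34.8, 38.4 and 34.2 RPKM in the controls, 40.7, 41.7 and 40.7 RPKM with CDK12-2, and 42.8, 43.2 and 39.0 RPKM with CDK12-6. The lowest CDK12 siRNA library lay just above the highest control. Its mean was 15.6% higher, at 41.4 ± 1.54 RPKM (SD, n = 6) against 35.8 ± 2.25 RPKM (SD, n = 3; log2 fold change 0.20 ± 0.070 SE, adjusted p = 0.049, limma), the call nearest to the threshold. Neither siRNA passed alone (adjusted p = 0.11 and 0.079, limma), and 12 of 21 alternatives ended the call, including the loss of any one library except luciferase AK41 and CDK12-6 AK49, with adjusted p of 0.054 to 0.19. The tail-binding protein PABPN1 (log2 fold change 0.01) and the polymerase phosphatase SSU72 (-0.15) did not pass. The listed span of PABPN1 lies mostly within that of the readthrough gene BCL2L2-PABPN1 (57.4 RPKM in the controls, 56.0 RPKM with CDK12 siRNA), so reads of the pair may be split between them and both levels are uncertain.

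**Figure D3:**
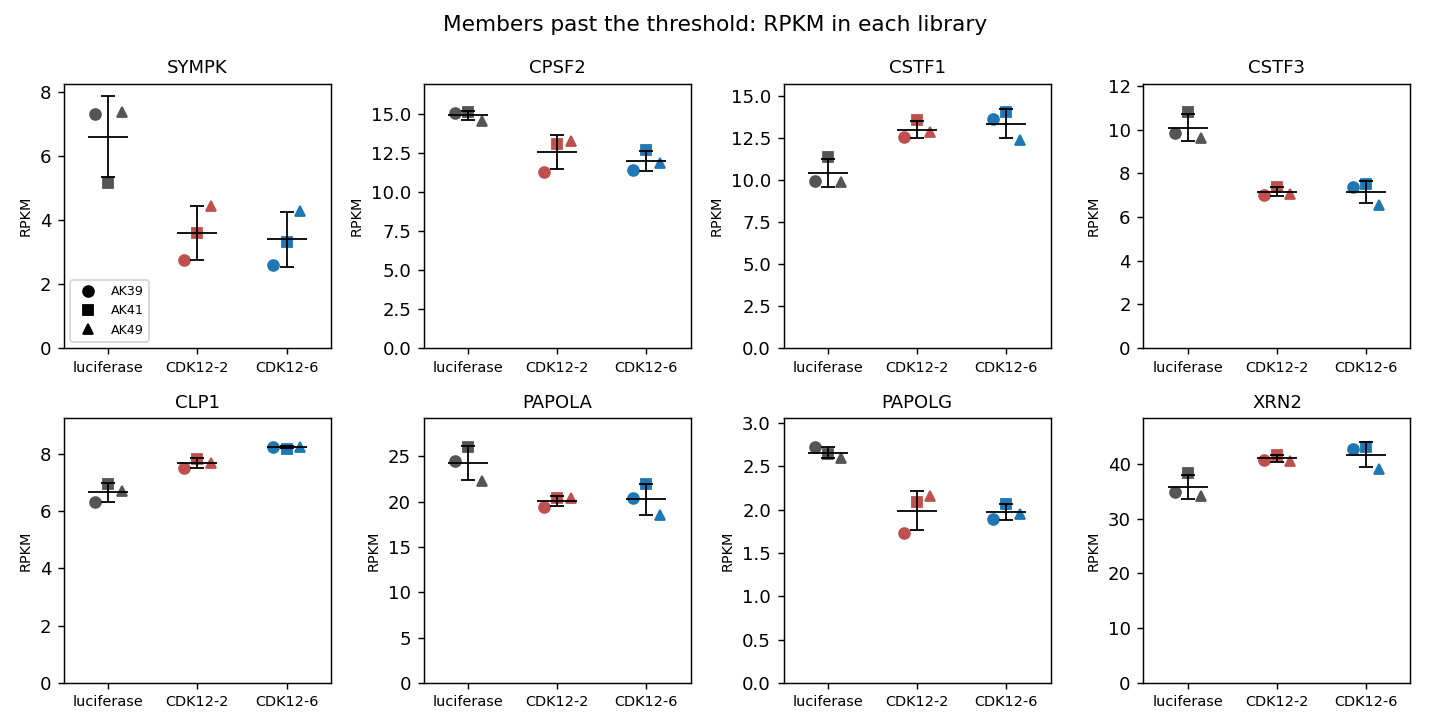
RPKM in each of the 9 libraries (y axis, from 0) by group (x axis) for the 8 genes that passed the threshold; the marker shape gives the AK number, the horizontal line the group mean and the bar 1 SD (n = 3). SYMPK, CPSF2, CSTF3, PAPOLA and PAPOLG are lower and CSTF1, CLP1 and XRN2 higher in all 6 CDK12 siRNA libraries than in any control.

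An earlier look at these data had picked out the heptamer GTGGGCA in the 3′ untranslated regions of genes that fell after CDK12 siRNA. Among the 33 members, annotated 3′ untranslated regions of 2 held it (6.06%), CPSF2 and PAPOLA, against 1799 of 11077 tested genes with such an annotation (16.2%). The sites are shown because both of these genes fell, while SYMPK, CSTF3 and PAPOLG fell and lack the heptamer. Each gene has a pair of sites, read on the sense strand of GENCODE v29 transcripts from chromosome 14, with the heptamer in capitals; it was searched on that strand alone. The PAPOLA sites lie in different transcripts of the gene. The second CPSF2 site starts at base 6567 of an annotated region of 10401 bases. The listed length of CPSF2 is only 5861 bases, so that site may lie outside the part in which reads were counted.
CPSF2, first site: ggagggacccaGTGGGCAgtaatttaatc
CPSF2, second site: aatcttcccacGTGGGCAagttccaagca
PAPOLA, first site: cagttttaaatGTGGGCAaaaaggcattt
PAPOLA, second site: gtcaaagttgtGTGGGCAtttgtgcttta
Outside the 7 letters the sites are unlike one another. Over all tested genes, 27.3% of those with the heptamer were called lower and 19.4% of those without it; since the heptamer was chosen on these data, this is a description. A match says only that the letters are present in the annotated region.

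None of the 11 Integrator genes passed with limma, while 3 of them (INTS6, INTS7 and INTS12) had an unadjusted p under 0.05, and limma-voom on recovered reads called none either. Of Integrator subunits outside these 11, INTS14 and INTS11 were called lower (log2 fold changes -0.88 and -0.37, limma). INTS13 and INTS15 were not called (-0.14 and -0.02). The median log2 fold change of the 11 was -0.08, single genes ranged from -0.22 (INTS12) to 0.22 (INTS1), and their 95% intervals lay within -0.42 to 0.67. INTS1, the largest scaffold subunit, read 15.2, 10.9 and 16.6 RPKM in the controls, 13.3, 16.2 and 21.3 RPKM with CDK12-2, and 12.1, 15.9 and 22.4 RPKM with CDK12-6. The groups overlapped broadly, and AK49 was the highest library in each of them (log2 fold change 0.22 ± 0.20 SE, adjusted p = 0.45, limma). INTS3, which also forms the SOSS complex at DNA breaks, had the same order within groups, 5.76, 4.32 and 6.09 RPKM in the controls, 4.92, 6.52 and 7.82 RPKM with CDK12-2, and 4.75, 5.75 and 7.11 RPKM with CDK12-6 (log2 fold change 0.15, adjusted p = 0.48, limma).

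INTS12, a small subunit with a PHD finger, read 4.4003, 5.39 and 4.36 RPKM in the controls, 3.89, 4.003 and 3.95 RPKM with CDK12-2, and 4.02, 4.16 and 3.42 RPKM with CDK12-6. These values did not overlap, with the controls spread by AK41 (log2 fold change -0.22 ± 0.084 SE, adjusted p = 0.074, limma). INTS6, which contacts the PP2A phosphatase, stood at 6.64, 7.07 and 6.36 RPKM in the controls and at 5.62 to 6.25 RPKM in the 6 CDK12 siRNA libraries, again without overlap (log2 fold change -0.17, adjusted p = 0.075, limma). INTS7 stood at 4.47, 4.55 and 3.98 RPKM in the controls and 4.62 to 5.33 RPKM with CDK12 siRNA (log2 fold change 0.16, adjusted p = 0.11, limma). INTS12 passed after a GC correction (adjusted p = 0.039, limma), INTS7 under quantile scaling and scaling to reads in listed genes (0.050 and 0.029), and INTS12 and INTS6 in a fit with the AK number as a replicate block (0.041 and 0.050). The remaining genes, INTS2, INTS4, INTS5, INTS8, INTS9 and INTS10, had log2 fold changes of -0.14, -0.09, -0.03, -0.08, -0.02 and -0.09, and none passed.

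**Figure D4:**
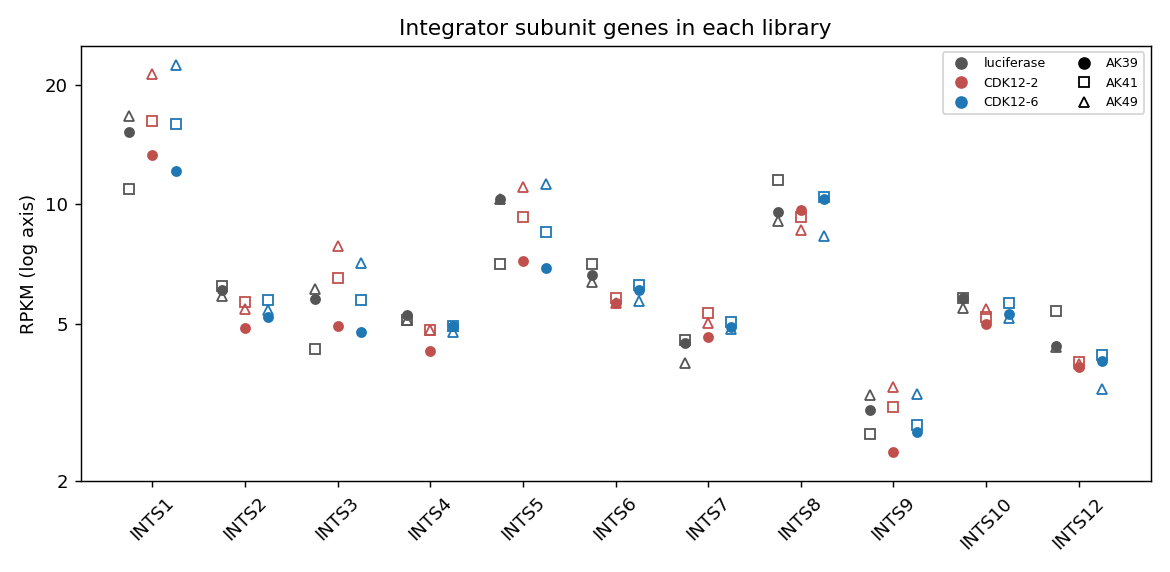
RPKM on a log axis (y) for the 11 Integrator subunit genes (x) in each of the 9 libraries, with colour for the group and marker shape for the AK number. INTS1, INTS3, INTS5 and INTS9 are spread most by library, with AK49 highest in both CDK12 siRNA groups, while INTS6 and INTS12 lie lower in all 6 CDK12 siRNA libraries than in the controls.

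Levels of the 6 CDK12 siRNA libraries did not overlap those of the 3 controls for 16 of the 33 members, 5 higher and 11 lower. That is 48.5% of members (15.2% higher and 33.3% lower), beside 34.2% of all tested genes (14.3% higher and 19.9% lower). Whether these shares differ was not tested. These 16 are the 8 called members with CPSF3, CSTF2T, PCF11, INTS2, INTS4, INTS6, INTS7 and INTS12. Taken singly, CDK12-2 called 4 members (12.1%), beside 25.2% of all tested genes, with CSTF1 higher (9.76% of all genes were) and SYMPK, CSTF3 and PAPOLG lower (15.4% were). CDK12-6 called 6 members (18.2%), beside 26% of all tested genes, with CSTF1 and CLP1 higher (10.4% were) and SYMPK, CSTF3, PAPOLG and CPSF2 lower (15.6% were). At an unadjusted p under 0.05, each siRNA had 10 members, or 30.3%, beside 37.5% of all tested genes for CDK12-2 and 38.2% for CDK12-6. Both comparisons share the 3 luciferase libraries. In the direct comparison of CDK12-2 with CDK12-6, 0 members and 0.00% of all tested genes were called by limma, limma-voom called 0 members, and 0 members had an unadjusted p under 0.05 (101 of all tested genes did, or 0.664%). The members' differences between the siRNAs ran from -0.09 to 0.11 log2 units, with 95% intervals within -0.50 to 0.56, so a difference of the size seen for CSTF1 or CPSF2 is not excluded for the noisiest genes.

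The number of called members moved with single libraries, as did calls over the whole table. Without luciferase AK39 it went from 8 to 3, without luciferase AK49 to 4 and without CDK12-2 AK41 to 5, while calls over all tested genes went from 5024 to 3095, 3387 and 3990. Without AK39, AK41 or AK49 in all groups the members called were 1, 1 and 3, and all genes called were 3171, 1805 and 3701. For CDK12-2 alone the count fell from 4 to 1 without luciferase AK39, luciferase AK49 or CDK12-2 AK41. Calls over all tested genes went from 1485 higher and 2343 lower to 988 and 1352, 1018 and 1532, and 860 and 1492, in that order. For CDK12-6 alone the members called fell from 6 to 1 without luciferase AK39 or AK49 and to 2 without CDK12-6 AK39 or AK41. Over all tested genes the calls went from 1584 higher and 2377 lower to 981 and 1335, 1025 and 1508, 1366 and 1472, and 901 and 1507. No called member changed sign in any alternative.

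Spread between libraries differed among members with base composition. Over the 33 genes, the GC content of the longest coding transcript and the within-group SD of log2(RPKM + 1) had a Spearman rho of 0.58 (Pearson r 0.75), a description over genes measured in the same libraries. The 13 members of at least 50% GC had a median SD of 0.241, and the 20 others a median of 0.0800. Deviations of the members from their group means rose with GC content in AK49 of every group (rho 0.73 to 0.79) and in luciferase AK39 (0.44), and fell with it in the other 5 libraries (rho -0.34 to -0.78). Over 14496 tested genes with a GC value the signs were the same in every library, with rho of 0.48 to 0.60 in AK49, so the trend is not particular to these genes. Those 5 include the 3 named above as richest in tail-less RNA, and the part of either in the spread was not tested. INTS1, CPSF1, INTS5, CPSF7, SYMPK, INTS3 and SSU72 were the 7 noisiest, and of these SYMPK alone passed; after a GC correction its log2 fold change was -0.73 (adjusted p = 0.0016, limma). GC content and log2 fold change had a rho of 0.09, listed gene length and fold change -0.13, and genomic span and fold change -0.14.

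**Figure D5:**
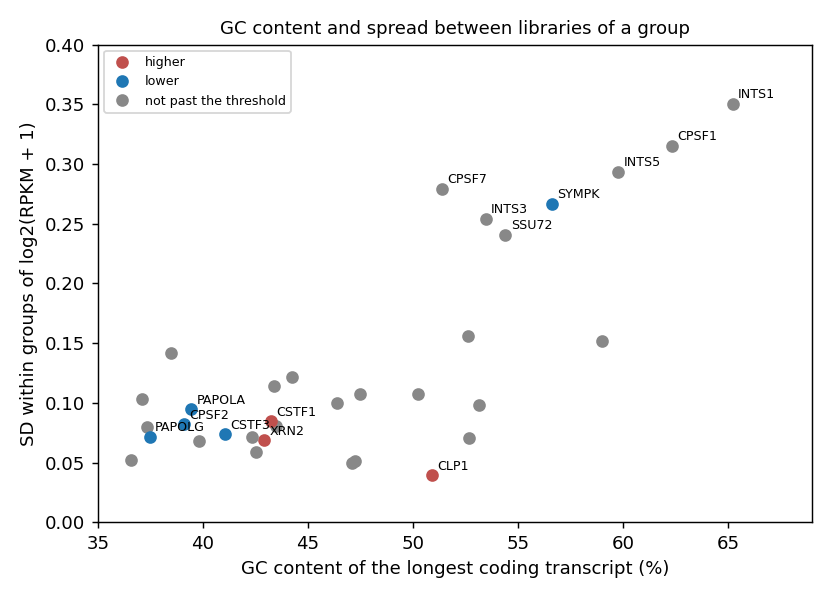
Within-group SD of log2(RPKM + 1) (y axis) against the GC content in percent of the longest coding transcript (x axis) for the 33 genes, coloured by call. The 7 labelled genes above an SD of 0.2 all have over 50% GC, and SYMPK is the only called gene among them, while CLP1 has the lowest SD of all members.

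Other genes of the same pathways were taken from 5 lists of 45 genes, all tested, of which 4 rose and 12 fell. Together these are 35.6% of the lists, beside 33% of all tested genes (13.3% higher and 19.7% lower), the background for each list below. Among 12 further subunits and partners of Integrator, SOSS and PP2A, 3 rose and 5 fell, with a median log2 fold change of -0.15. INTS14 (listed as VWA9), of the Integrator module with INTS10, fell from 7.70 ± 0.131 RPKM (SD, n = 3) to 3.72 ± 0.140 RPKM (SD, n = 6; log2 fold change -0.88, adjusted p = 1.5e-05, limma). NABP1, the single-stranded DNA-binding subunit of SOSS, fell from 7.50 ± 0.338 RPKM (SD, n = 3) to 3.24 ± 0.261 RPKM (SD, n = 6; log2 fold change -1.01, adjusted p = 1.9e-05, limma), and its paralog NABP2 fell by 0.53 on the log2 scale (adjusted p = 0.010). Higher were the PP2A scaffold PPP2R1B (log2 fold change 0.34, adjusted p = 0.012, limma), the SOSS subunit INIP (0.24, adjusted p = 0.030) and INTS6L, listed as DDX26B (log2 fold change 0.40). INTS6L passed the filter through its CDK12 siRNA libraries, at 1.20 RPKM against 0.669 RPKM in the controls, and so had to differ. Its value is a description, and without it 2 partners and 3 genes of all lists rose. INTS11 (listed as CPSF3L), the endonuclease of Integrator and a relative of CPSF3, was picked out after its values were seen; it fell from 7.10 to 5.25 RPKM with overlapping groups (log2 fold change -0.37, adjusted p = 0.038, limma).

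Among 18 termination and polymerase-tail-binding factors, 1 rose and 4 fell, with a median of 0.06. RPRD1A, which binds the phosphorylated tail, fell from 8.99 ± 0.571 RPKM (SD, n = 3) to 3.91 ± 0.254 RPKM (SD, n = 6; log2 fold change -1.02, adjusted p = 2.0e-05, limma). RPAP2, a tail phosphatase that RPRD proteins bind, fell from 2.08 to 1.31 RPKM (log2 fold change -0.42, adjusted p = 0.0011, limma), and PPP1R10, the PP1 regulator of termination, fell by 0.53 on the log2 scale (adjusted p = 0.014). PPP1CC, a PP1 catalytic subunit, was higher by 0.23 (adjusted p = 0.043, limma). Of 7 other poly(A) polymerases and poly(A)-binding proteins, PAPD4, a cytoplasmic polymerase, fell from 6.35 to 4.59 RPKM (log2 fold change -0.40, adjusted p = 0.0017, limma). One of 5 cap-binding and decay adaptors, NCBP2, and 1 of 3 U1 snRNP proteins, SNRPA, also fell (log2 fold changes -0.35 and -0.58, adjusted p = 0.034 and 0.017, limma). The count of 16 over all lists fell to 7 without luciferase AK39, to 7 without luciferase AK49, to 7 without AK39 in all groups and to 5 without AK41 in all groups. The share of all tested genes called fell as well, from 33% to 20.4%, 22.3%, 20.9% and 11.9% in that order.

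The kit does not mark strand, and 24 of the 33 members share part of their listed span with another gene. Reads from bases that both genes count could not be told apart by strand. These spans include introns, and whether counted bases are shared was not tested. Some members overlap only a gene at or near 0 RPKM, such as INTS7 with SNORA26 (0 RPKM). The span of CSTF3 overlaps that of TCP11L1 (3.47 RPKM in the controls and 2.47 RPKM with CDK12 siRNA), and SYMPK holds AC092301.3 within its span (3.07 and 1.74 RPKM). INTS12 shares most of its span with GSTCD, which stood at 4.28 and 4.29 RPKM (log2 fold change 0.01, 95% interval -0.15 to 0.16). CSTF1, PAPOLG and XRN2 share none. Beside CSTF1, the neighbouring AURKA, a mitotic kinase gene, was at 45.9 to 47.0 RPKM in the controls and 48.4 to 55.8 RPKM with CDK12 siRNA (log2 fold change 0.19, adjusted p = 0.063, limma), and ITGB1BP1, which lies next to CPSF3, fell from 14.1 to 8.53 RPKM (log2 fold change -0.66, adjusted p = 0.00014, limma). Both neighbours were picked out after their values were seen. The authors' deposited table does not say which libraries entered its fold change, which was read here as both siRNAs against luciferase. In the authors' deposited table, at a false discovery rate under 0.05, 1 member is higher (CSTF1, log2 fold change 0.33) and 3 are lower (SYMPK -0.93, CSTF3 -0.51 and PAPOLG -0.44). The share of all genes past that rate was not counted, so these counts have no background beside them. CPSF2, PAPOLA, CLP1 and XRN2 do not pass there (false discovery rate 0.0503, 0.076, 0.17 and 0.33). The fold changes above carry an offset of 1 RPKM. With limma-voom on recovered reads they were 0.34 for CSTF1, -0.93 for SYMPK, -0.50 for CSTF3 and -0.43 for PAPOLG.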

How the data were processed

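RNA was extracted in total and libraries were made with a poly(A)-selecting kit, per the labels' protocols. The deposited values are RPKM; the submitters' processing notes name TopHat2, featureCounts, edgeR and hg19, with no settings. The authors' deposited table also gives a log2 fold change and an FDR, an adjusted p-value, per the file headers, which do not say which libraries entered them; they were read as CDK12 siRNA against control. RPKM times the listed length plus 1 gave whole reads for 100% of values (tolerance 0.001), with 104963048 to 131472019 reads in listed genes per library.

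Limma 3.58.1 in R 4.3.3 (eBayes with a trend) was run on log2(RPKM + 1), which understates changes of genes near 1 RPKM, over genes that reached 1 RPKM in 3 or more libraries. All 9 libraries in 3 groups were fitted together, with no covariate, and Benjamini-Hochberg adjustment ran over all tested genes, with a threshold of 0.05. The script was tested on simulated data. GC content and 3′ untranslated regions came from GENCODE v29 (GRCh38) by gene identifier; coordinates are hg19 as deposited.

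The members and lists were chosen with earlier results of these data known. Every called member is given by library, with CPSF3, PCF11 and the largest uncalled member of each complex, and of each other list up to 3 higher and 3 lower genes with the lowest adjusted p; INTS3, INTS6, INTS7, INTS12, INTS11 and gene neighbours were added after their values were seen. Alternatives were a pseudocount of 0.1, no filter, quantile scaling, scaling to reads in listed genes and limma-voom on recovered reads. Others were the comparison's groups alone, a replicate block and leaving out libraries. For the mean of both siRNAs, the comparison's groups alone meant all 9 libraries with both CDK12 siRNAs merged into a single group. Dropping from each group the library richest in RNA without a poly(A) tail, and a GC correction per library, were alternatives chosen after seeing the data.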

Additional observations from a re-analysis of the deposited data

How the results depend on the processing

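Single-gene fold changes were followed over 21 alternatives for the 8 called members, CPSF3, PCF11 and the largest uncalled member of each complex. Of these, 244 kept their direction and side of the threshold, 44 lost a call, 6 gained one and 0 reversed. Among the members not followed in this way, FIP1L1, INTS6, INTS7 and INTS12 also gained calls. The count of called members (8) stayed within 1.5 times under every alternative that keeps all libraries, from 7 to 11. The share of all tested genes called did not stay as close. It was 33% in the main fit, 13.9% with no filter (7 members) and 43.4% with quantile scaling (11 members). With CDK12-2 alone (4) it was 7 with quantile scaling and 2 with only the groups compared. All tested genes called went from 1485 higher and 2343 lower to 2727 and 2803, and to 1408 and 2104. Leaving out a library, or an AK number in all groups, gave 1 to 8 members for the mean of both siRNAs, 0 to 5 for CDK12-2, 0 to 6 for CDK12-6, 0 to 0 for CDK12-2 against CDK12-6, and 5 to 17 of the other pathway genes (16). Of all tested genes, 11.9% to 34.9% were called for the mean of both siRNAs. For CDK12-2 the calls over all tested genes ran from 288 higher and 614 lower to 1667 and 2547. For CDK12-6 they ran from 337 and 616 to 1754 and 2644. These fits also hold fewer libraries, and the cause of the differing counts was not tested. With the AK number as a replicate block, 10 members were called, 3 higher and 7 lower; the gained calls were INTS6 and INTS12, both lower, and 41% of all tested genes were called. Deviations of same-numbered libraries correlated from -0.563 to 0.809. The AK49 libraries correlated at 0.648, 0.755 and 0.809 with one another, and the AK39 libraries of CDK12-2 and CDK12-6 at 0.764. Luciferase AK39 and luciferase AK41 did not correlate best with their own numbers, so the numbers were not taken to pair libraries. The labels do not say what the numbers mark, and these correlations cannot settle whether same-numbered libraries were prepared together. Each member had 1807 reads or more in every library, and each group has 3 technical libraries; what limits the number of calls was not tested.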
